A study of Mus musculus with 12 samples.

Results

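Mbp, Mog, Mag, Mobp, Cnp, Cldn11, Mal, Ermn and Opalin, 9 genes of mature oligodendrocytes, were followed across 3 diets in the mouse cerebellar cortex. They were chosen by name as genes of the mature myelin-forming cell, out of the 54752 genes in the count table, and all 9 passed the filter on low counts. Poly(A) RNA was measured in 12 wild-type male mice, all F1 hybrids of C57BL6J and FVB and all 12 weeks old. Of these, 4 mice were fed ad libitum (AL), 4 were on dietary restriction (DR) and 4 were on a ketogenic diet (KD). DR mice received a reduced portion once a day before the dark period, were killed early in the dark period and had not been given their last meal. How the KD was composed, how long it was fed and when the KD mice were killed are not given in the sources used here. The AL and DR libraries came from mice chosen by RNA quality out of a larger number on each diet, and the dissected tissue held several folia of the cortex without the cerebellar nuclei. Libraries are named by diet and number (AL1 to AL4, DR1 to DR4, KD1 to KD4), and the numbers carry no pairing between diets.

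Oligodendrocytes wrap axons of the central nervous system in layers of membrane that are pressed together into compact myelin. In the cerebellum, myelin covers the axons of Purkinje cells and the incoming mossy and climbing fibres, mostly in the white matter and the granule cell layer. Myelin basic protein (Mbp) zips the inner faces of the membrane together, whereas proteins of the outer face, of the inner cytoplasmic channels and of the tight junctions between wraps hold the sheath in shape and attach it to the axon.

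Each library held between 31712084 and 40798644 counts on genes. Counts were scaled with TMM factors (0.991 to 1.02) and are given as CPM, the share of a library's counts on a common scale. All 9 genes were detected in all 12 libraries. Together they took 0.168% to 0.213% of the counts, and Mbp made up 58.8% to 62.6% of that share. Of the defining genes of Schwann cells, which form the myelin of peripheral nerves, Egr2 had 0 to 4 reads per library and Pmp2 had none. The list was not silent as a whole. Of its 8 genes, 5 passed the filter on low counts, among them Drp2 with 852 to 1302 reads per library. In whole tissue, fewer oligodendrocytes and less RNA per oligodendrocyte cannot be told apart.

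The stretches before the starts of Mag, Mobp and Cnp are shown because the ratio of Mobp to Mag had all DR libraries apart from all AL libraries, and Cnp held nearly level, a choice made after their values were seen. Each runs 5′ to 3′ from 250 to 51 bases before a RefSeq start on GRCm38.p6. Capitals mark ACAAAG or its reverse complement CTTTGT, the core read by SOX factors such as Sox10, and CTGGCAC or its reverse complement GTGCCAG, a core read by the myelin regulator Myrf. Both strands were searched, and the motifs do not overlap each other in these stretches.
Mag (chr7:30914914-30915113, minus strand, the first of 3 listed starts): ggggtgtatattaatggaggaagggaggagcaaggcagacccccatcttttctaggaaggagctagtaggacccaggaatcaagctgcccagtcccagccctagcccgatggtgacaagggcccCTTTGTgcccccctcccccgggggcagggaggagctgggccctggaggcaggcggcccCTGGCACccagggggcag
Mobp (chr9:120149492-120149691, plus strand): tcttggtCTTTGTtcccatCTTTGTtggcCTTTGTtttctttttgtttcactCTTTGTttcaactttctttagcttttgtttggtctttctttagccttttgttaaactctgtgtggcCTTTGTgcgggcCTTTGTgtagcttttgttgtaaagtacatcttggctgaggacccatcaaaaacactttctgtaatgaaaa
Cnp (chr11:100574689-100574888, plus strand): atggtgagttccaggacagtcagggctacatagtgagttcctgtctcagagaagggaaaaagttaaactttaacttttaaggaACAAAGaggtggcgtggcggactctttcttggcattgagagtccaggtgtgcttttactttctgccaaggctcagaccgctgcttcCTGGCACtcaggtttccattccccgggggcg

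The Mobp stretch held 6 matches to the SOX core, whereas the Mag stretch shown and the Cnp stretch held 1 match to each core. The stretch of the second listed Mag start held 1 SOX core and no Myrf core, and that of the third held neither. Over 32851 RefSeq stretches of the same length, 13.6% held the SOX core and 3.35% the Myrf core. The Mobp stretch was the only one of them with 6 or more SOX cores, a limit set after its own count was seen. It is also poor in G and C (37.5%, against 65.5% for the Mag stretch shown and 50.5% for Cnp). Opalin had 1 SOX core in its stretch, and those of Mog, Cldn11, Mal and Ermn held neither core. A match is a run of letters and not a measured binding site.

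To compare levels between genes, CPM were divided by the exonic length in kilobases. Mbp was highest, at 139.8 ± 14.2 CPM per kb (SD over 12 libraries). Cnp followed at 56.6 ± 2.75 CPM per kb, and Mobp at 46.7 ± 4.74 CPM per kb. The ranges of Cnp and Mobp overlapped, and neither reached Mbp. Cldn11 (24.2 ± 2.95 CPM per kb) and Mal (22.7 ± 1.31 CPM per kb) formed the next pair, again with overlapping ranges. Mag (16.96 ± 1.66 CPM per kb), Mog (11.8 ± 1.7 CPM per kb) and Ermn (8.59 ± 1.2 CPM per kb) followed, each overlapping its neighbour in this group. Opalin was far below, at 0.506 ± 0.202 CPM per kb, and its 6 to 59 reads per library made it the least precise of the genes.

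Among the genes of compact myelin, Mbp (ENSMUSG00000041607.16, chromosome 18) had 1118, 1006, 1306 and 1341 CPM in AL1 to AL4. It had 1010, 1004, 1289 and 1189 CPM in the DR libraries and 1234, 1147, 1249 and 1206 CPM in the KD libraries. The 3 diets overlapped, with 2 low and 2 high mice on AL and on DR, and all KD mice lay between the low and the high AL mice. Mobp (ENSMUSG00000032517.16, chromosome 9, 120149707 to 120181484), a small basic protein of the same compact layers, had 282, 262, 339 and 341 CPM on AL. It had 307, 288, 369 and 364 CPM on DR and 313, 324.5, 315 and 336 CPM on KD. Its DR libraries were spread over the range of the AL libraries and above it. Mal (ENSMUSG00000027375.14, chromosome 2, 127633226 to 127656695), a membrane protein that sorts cargo into myelin, had 58.1, 64.3, 65.6 and 64.0 CPM on AL. Its values were 57.8, 60.7, 66.7 and 62.9 CPM on DR and 68.2, 57.7, 64.9 and 66.1 CPM on KD, so that the diets covered nearly the same range.

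Cnp and Ermn belong to the inner channels and the cytoskeleton. Cnp (ENSMUSG00000006782.16, chromosome 11, 100574904 to 100591729) encodes an enzyme that holds cytoplasmic channels open, and it had 211, 202, 204 and 212 CPM on AL. On DR it had 209, 177, 210 and 209 CPM, with DR2 alone below the rest. KD libraries had 208, 205, 206 and 217 CPM, within the range of AL but for KD4. Ermn (ENSMUSG00000026830.9, chromosome 2, 58045113 to 58052864), an actin-binding protein of late oligodendrocytes, had 29.4, 25.9, 32.7 and 39.2 CPM on AL. It had 25.2, 26.3, 31.8 and 29.2 CPM on DR and 31.2, 31.6, 36.4 and 35.6 CPM on KD. DR3 lay just above the 2 lowest KD libraries, so even the most distant diets overlapped for Ermn. Exons of other genes on the opposite strand cover 4.23% of Cnp (Dnajc7) and 6.52% of Ermn (Galnt5), and a gene on the same strand (Gm38642) covers 1.15% of Mobp.

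The remaining genes encode proteins of the myelin surface and its junctions. Mag (ENSMUSG00000036634.15, chromosome 7, 30899176 to 30914873), an adhesion receptor on the membrane that faces the axon, had 69.7, 65.9, 79.0 and 72.0 CPM on AL. It had 56.4, 59.0, 64.3 and 68.5 CPM on DR and 73.1, 69.9, 74.4 and 76.5 CPM on KD. All 4 KD libraries were above all 4 DR libraries, and of the AL libraries only AL2 was below the highest DR library. Mog (ENSMUSG00000076439.12, chromosome 17, 37010743 to 37023398), an immunoglobulin-like protein of the outermost surface, had 16.9, 20.5, 27.7 and 21.0 CPM on AL. Its values were 17.8, 17.7, 20.6 and 17.1 CPM on DR and 21.9, 20.1, 20.2 and 19.6 CPM on KD. AL1 was lowest and AL3 highest of all 12 libraries, so the AL mice spanned both other diets.

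Cldn11 (ENSMUSG00000037625.7, chromosome 3, 31149920 to 31164324), the claudin of the tight junctions between myelin wraps, had 43.7, 42.8, 54.8 and 49.2 CPM on AL. It had 33.4, 38.7, 50.7 and 43.9 CPM on DR and 46.7, 46.9, 45.6 and 45.9 CPM on KD. The DR libraries lay on both sides of the KD libraries, which were nearly identical. Opalin (ENSMUSG00000050121.8, chromosome 19, 41062474 to 41077113), a sialylated membrane protein of late oligodendrocytes, had 0.592, 1.52, 1.23 and 0.951 CPM on AL. It had 0.715, 0.749, 0.173 and 0.687 CPM on DR and 1.32, 0.942, 1.12 and 1.16 CPM on KD. All DR libraries were below all KD libraries, and AL1 was the one AL library within the DR range.

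**Figure D1:**
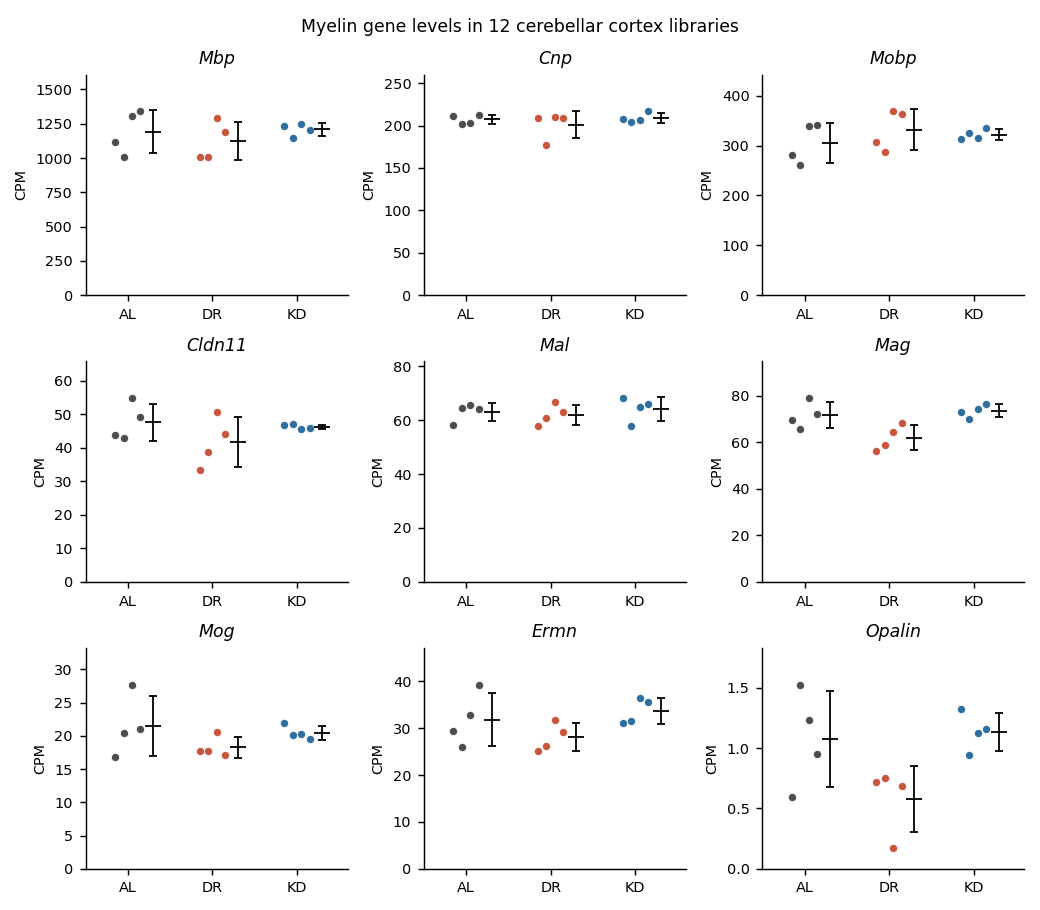
CPM of the 9 myelin genes on the y axis (from 0) for AL, DR and KD on the x axis; each point is 1 library and the black bars are the mean ± SD of 4 libraries. For Mag and Opalin the 4 KD points lie above the 4 DR points, whereas for the other genes all diets overlap.

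The first comparison asked what DR did to these genes relative to AL feeding. No gene of the 9 was called differentially expressed. Of the 9, 8 had a fold change below 0, with Mobp as the exception. The median log2 fold change was -0.18, against 0.004 over all genes tested. Without Opalin, the genes varied together between mice of a diet (median r 0.57 over pairs). Counts of the 9 in 1 direction, in each comparison, are therefore not separate results. Mag (71.7 ± 5.49 CPM on AL, 62.1 ± 5.39 CPM on DR, SD, n = 4) and Opalin (1.08 ± 0.398 and 0.581 ± 0.273 CPM, SD, n = 4) were furthest below AL relative to their error. In edgeR's quasi-likelihood test, 0 of 9 passed a Benjamini-Hochberg adjusted p under 0.05, while 3.06% of the 19052 genes tested did. DESeq2 also called 0 of the 9. At an unadjusted p under 0.05, 2 of the 9 (Mag and Opalin) passed, against 18% of all genes, and 49% of all genes were below 0. For none of the 9 were the DR and AL libraries apart, against 10.9% of all genes. Without a filter on low counts, 3 of the 9 passed (Cldn11, Mag and Opalin).

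Mag was at -0.21 on the log2 scale (standard error, SE, 0.07; adjusted p = 0.111), a difference of -13.4% with a 95% interval from -21.4% to -4.44%. Opalin was at -0.88 (SE 0.36, adjusted p = 0.219). Its level rested on few reads, its interval ran from -68.3% to -6.81%, and without DR3 it was at -0.58. Mog (log2 fold change -0.23, adjusted p = 0.315), Cldn11 (-0.19, adjusted p = 0.377) and Ermn (-0.18, adjusted p = 0.418) had intervals that started at -28.3%, -25.1% and -24.3% and ended slightly above 0. With a library left out, their log2 fold changes ran from -0.33 to -0.088 for Mog (the latter without AL3), -0.30 to -0.093 for Cldn11 (without DR1) and -0.26 to -0.061 for Ermn (without AL4). The estimates of Mbp, Cnp and Mal were closer to AL. Mbp differed by -5.82% (95% interval -17.9% to 8.07%, adjusted p = 0.686) and Cnp by -2.84% (-10.4% to 5.37%, adjusted p = 0.754). Mal differed by -1.54% (-9.16% to 6.72%, adjusted p = 0.878), which leaves room for changes of several percent in either direction. Mobp alone was above AL, by 8.57% (-5.21% to 24.4%, adjusted p = 0.542).

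The second comparison set KD against AL, and here the 9 genes lay closer together. Their log2 fold changes ran from -0.07 (Mog) to 0.09 (Ermn), with a median of 0.03, and 2 of the 9 were below 0, against 49.9% of all genes. Over all 19036 genes tested, 0% were called, and 0 of the 9 genes were called by edgeR or by DESeq2. At an unadjusted p under 0.05, 928 of all genes (4.87%) and 0 of the 9 passed, and DESeq2 called 9 genes in all. The libraries were apart for 0 of the 9, against 2.96% of all genes. The intervals were narrowest for Cnp (-4.36% to 6.59%), Mag (-4.98% to 11%) and Mal (-5.79% to 10.7%). They were wide for Mog (-19.0% to 12.2%) and widest for Opalin (-27.1% to 54.7%), so only large changes of Opalin would have been seen.

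The third comparison, KD against DR, tests whether the diets acted alike on each gene. It shares its libraries with the other comparisons. Mag was higher on KD (73.5 ± 2.77 CPM, SD, n = 4) than on DR by 18.4%, with a 95% interval from 8.91% to 28.7%. On the log2 scale this was 0.24 (SE 0.06), at an adjusted p of 0.0211, and Mag was the one gene of the 9 that passed (11.1%), against 4.94% of the 19087 genes tested in either direction and 2.43% higher on KD. Opalin (log2 fold change 0.96, SE 0.31) and Ermn (0.26, SE 0.08) came next, with adjusted p of 0.0891 and 0.0567, which did not pass. All genes but Mobp were above 0 (8 of the 9, with a median of 0.15), against 50.8% of all genes below 0, and 4 of the 9 had an unadjusted p under 0.05, against 18.7% of all genes. For Mag and Opalin (2 of the 9) the KD libraries lay above the DR libraries without overlap, as they did for 6.03% of all genes, with 11.8% apart in either direction.

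The call of Mag depended on single libraries. It was lost without DR1 (adjusted p = 0.0514), DR2 (0.051), KD1 (0.0567), KD3 (0.0673) or KD4 (0.0704), and held without DR3, DR4 or KD2. It was also lost when the mean log2 CPM of the other oligodendrocyte genes of the study's list was a covariate (log2 fold change 0.17, adjusted p = 0.164). Ermn passed with DESeq2 (adjusted p = 0.018), without a filter on low counts (0.00188) and without DR3 (0.0263). The other 6 genes did not pass, with log2 fold changes of 0.16 for Mog (adjusted p = 0.22), 0.15 for Cldn11 (0.391), 0.11 for Mbp (0.438), 0.05 for Cnp (0.649) and for Mal (0.695) and -0.04 for Mobp (0.794).

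**Figure D2:**
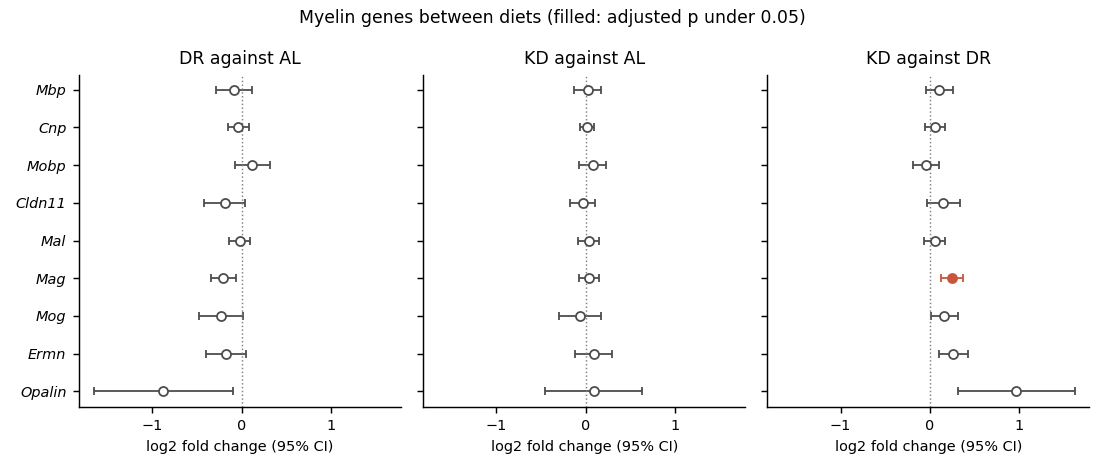
Log2 fold changes (x axis) of the 9 myelin genes (y axis) in the 3 comparisons, with 95% intervals from edgeR; filled points have an adjusted p under 0.05. Mag in KD against DR (0.24) is the filled point, and the interval of Opalin is the widest in each panel.

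Other cell types also differed between the diets. The summed CPM of 8 Purkinje cell genes was 6983 to 8064 on DR, 8335 to 8873 on AL and 8208 to 8444 on KD. Itpr1 alone had a mean of 4394 CPM on AL and 3769 CPM on DR, so the sum mainly follows that gene. All 8 genes were below 0 in DR against AL, and 2 were called, Car8 among them. The sum of 9 genes of Bergmann glia and astrocytes was 2667 to 2795 on DR, 2995 to 3144 on AL and 2884 to 3041 on KD, with all 9 below 0 in DR against AL and 3 called lower (Aqp4, Hopx and Gja1). In this sum Slc1a3 alone had a mean of 1324 CPM on AL. Granule cell genes were evenly split, with 4 of 8 below 0, no call, and sums of 6129 to 6225 CPM on DR against 5938 to 6413 CPM on AL. None of the genes of microglia (8), endothelium (6), molecular layer interneurons (6), cerebellar nuclei (4 tested) or choroid plexus (3 tested) was called in DR against AL, and 1 of 5 tested Schwann cell genes was (Drp2, which had 852 to 1302 reads per library). In KD against DR, 2 of the 8 Purkinje cell genes, 2 of the 9 glial genes, 1 of the 5 Schwann cell genes (Drp2), 1 of the 6 endothelial genes (Kdr) and 1 of the 3 choroid plexus genes (Ttr) were called higher. With single libraries left out, the calls of Drp2 in either comparison and of Ttr each held in 1 of 8 fits, and Ttr ran from 0.371 to 7.95 CPM on KD, across its DR libraries. Of the granule cell genes, Fat2 was called higher and Cbln3 lower, and none of the microglia, interneuron or cerebellar nuclei genes was called. The part of these differences in the values of the myelin genes was not tested.

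Mice of the same diet differed in several of these genes more than in most genes of a similar level. Within diets, the SD of log2 CPM was 0.156 for Mbp, 0.154 for Mobp, 0.176 for Cldn11, 0.182 for Ermn and 0.187 for Mog. Each of these was above the SD of at least 95.6% of genes of a similar level. Cnp (0.077), Mal (0.09) and Mag (0.101) were steadier, above 68.3%, 76.1% and 84.5% of such genes, and against genes of all levels they were above 24.9%, 33.5% and 38.8%. The spread itself differed between diets in these libraries. The median SD over the 8 genes without Opalin was 0.179 on AL, 0.138 on DR and 0.055 on KD, whereas over 11699 genes of at least 5 CPM it was 0.077, 0.085 and 0.070. In 8 of the 9, all but Mal, the SD was lowest on KD, as it was in 42.3% of those genes. Most of the 9 vary together between mice, so the 8 are not separate results.

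The deviations ran in parallel across genes. Over the 28 pairs of the 8 genes without Opalin, the correlation of deviations from the diet means over 12 libraries had a median r of 0.57, from -0.08 (Mog and Cnp) to 0.92 (Mbp and Mobp). Between the same 8 genes and 11691 other genes the median was -0.019. These points share library and scaling, and the values are a description. AL1, AL2, DR1 and DR2 were below their diet mean for Mbp, Mobp, Mag, Cldn11 and Ermn. AL3, AL4, DR3 and DR4 were above it for the same genes. Opalin had a median r of -0.39 with the others, which rested on DR3. There Opalin was at its lowest and the other 8 genes were all above the DR mean. Without DR3, left out after seeing the data, the median r was -0.039, with 4 of 8 below 0.

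**Figure D3:**
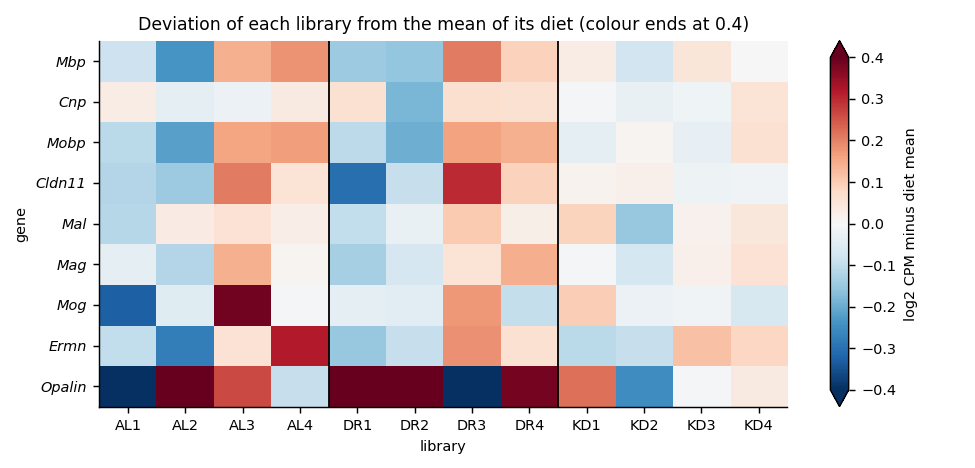
Deviation of log2 CPM from the mean of the diet for 9 genes (rows) in 12 libraries (columns, black lines between diets), red above and blue below the mean, with colours ending at 0.4 either way. AL1, AL2, DR1 and DR2 are mostly blue and AL3, AL4, DR3 and DR4 mostly red. The KD columns are pale except for Opalin, which also goes against the others in DR3.

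A deviation shared by 2 genes cancels in their ratio, so ratios of CPM were compared between diets. The ratio of Mobp to Mag was 4.04, 3.97, 4.29 and 4.74 on AL. It was 5.43, 4.88, 5.74 and 5.32 on DR and 4.29, 4.64, 4.23 and 4.40 on KD. Every DR library was above every AL and KD library. The mean was 4.26 ± 0.349 on AL, 5.34 ± 0.358 on DR and 4.39 ± 0.183 on KD (SD, n = 4). This ratio was picked after its values were seen and carries no test. Of all 36 pairs of the 9 genes, 4 (11.1%) had DR and AL libraries apart, against 17.1% of 12403 pairs from the study's oligodendrocyte list. The 4 were ratios of Mobp, to Mbp, Mag, Cldn11 and Ermn, with Mobp relatively higher on DR. Between KD and DR, 12 of 36 (33.3%) were apart, against 24.3% of the pairs of the list. Of the 12, 7 were ratios of Opalin, and in a count without that gene, added after seeing the data, 5 of 28 (17.9%) were apart, below the share of the list. Between KD and AL it was 0 of 36, against 4.68%.

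**Figure D4:**
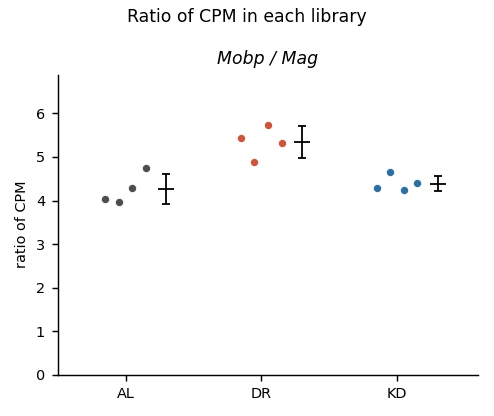
Ratio of CPM of Mobp to Mag in each of 12 libraries by diet, with the y axis from 0; points are libraries and black bars are the mean ± SD of 4. The 4 DR points lie above all AL and KD points.

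Of 18 other proteins of myelin and its paranodes, 3 were called lower on DR than on AL and none higher (median log2 fold change -0.05). Over all genes tested, 1.74% were called lower on DR and 1.32% higher. Among the 3 were Gpr37, a receptor that restrains oligodendrocyte maturation (-0.31, adjusted p = 0.0206), and the tetraspanin Tspan2 (-0.25, adjusted p = 0.0327). The same 3 were called higher on KD than on DR (all genes: 2.43% higher, 2.51% lower), among them Gpr37 with a log2 fold change of 0.38 (adjusted p = 0.00217) and Tspan2 with 0.20 (adjusted p = 0.0192). With single libraries left out, the DR call of Gpr37 held in 4 of 8 fits and that of Tspan2 in 2. The gap junction protein Gjb1 (log2 fold change -0.05) and Hapln2, a link protein of the node (0.32, adjusted p = 0.0608), did not pass on DR. Nfasc and Cntn2 of this list are also neuronal genes.

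Of 10 genes of myelin lipid synthesis, Ugt8a, which makes the galactolipids of myelin, was called (24.0 ± 2.93 CPM on AL, 17.3 ± 2.24 CPM on DR and 25.9 ± 1.86 CPM on KD, SD, n = 4). Its log2 fold changes were -0.47 for DR against AL (SE 0.10, adjusted p = 0.0206, held in 3 of 8 fits with a library left out) and 0.59 for KD against DR (adjusted p = 0.00075, held in 8 of 8). Fa2h, which hydroxylates the fatty acids of those lipids, was at 0.02 on DR and Cers2, a ceramide synthase, at 0.04, and neither passed. Cholesterol synthesis, which feeds myelin and serves all cells, had 6 of 20 genes called lower and 17 of 20 below 0 in DR against AL (median log2 fold change -0.14). They were Hmgcs1 (-0.32, adjusted p = 0.00156), Cyp51 (-0.47, adjusted p = 0.00167), Idi1, Sqle, Msmo1 and Sc5d. Relative to DR, 5 of 20 were called higher on KD. Exons of opposite-strand genes cover 12.1% of Hmgcs1, and its reads could include theirs.

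Of 20 regulators of myelination, 1 was called lower on DR, the repressor Zeb2 (-0.30, adjusted p = 0.00831), and 15 of 20 were below 0. Sox10, the transcription factor that drives myelin genes, had 16.1 ± 3.11 CPM on AL, 11.9 ± 0.849 CPM on DR and 17.98 ± 1.87 CPM on KD (SD, n = 4). Relative to AL it was at -0.44 on DR (log2, adjusted p = 0.0608), which did not pass. On KD it was above DR by 0.60 (SE 0.08, adjusted p = 0.000592). Myrf (-0.16, adjusted p = 0.496), Olig2 (-0.06, adjusted p = 0.841) and Olig1 (-0.04, adjusted p = 0.855), further regulators of the lineage, did not pass on DR, and neither did they in KD against DR. Zeb2 was called with Sox10 there (0.38, adjusted p = 0.000934).

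Among the lists compiled by role, the largest share of calls fell on 20 genes of oligodendrocyte support and subtypes, with 8 called lower and 1 higher on DR (45%, median log2 fold change -0.19). Over all genes tested, 3.06% were called. Hhip, Hcn2 and Fth1 of this list are genes that the study picked on these mice, so its share is not independent of these data. Car2, the carbonic anhydrase of oligodendrocytes, had 106 ± 9.46 CPM on AL, 77.1 ± 4.2 CPM on DR and 108 ± 4.42 CPM on KD (SD, n = 4), which put DR at -0.46 on the log2 scale (SE 0.06, adjusted p = 0.00116). Cryab, a small heat shock protein, fell by 0.58 (adjusted p = 0.01), but 17% of its exonic bases lie under exons of Hspb2 on the opposite strand. Hhip, an inhibitor of hedgehog ligands (-0.70, adjusted p = 0.0128), Klk6, a secreted protease of oligodendrocytes (-0.92, adjusted p = 0.0358), Gatm of creatine synthesis (-0.21, adjusted p = 0.024), Serpinb1a, Il33 and Hcn2 were also lower. With single libraries left out, Klk6 and Gatm were called in 3 of 8 fits each, Serpinb1a in 2, Il33 in 1 and Hcn2 in 0, whereas Car2, Cryab, Hhip and Apod were called in 8 of 8. Apod, a lipid carrier, rose on DR, from 89.4 ± 9.05 to 117.5 ± 12.7 CPM (SD, n = 4; log2 fold change 0.39, adjusted p = 0.0145). In KD against DR 8 of the 20 were called higher, Car2 with the lowest adjusted p (5e-05), and Apod (-0.51) and Ptgds (-0.34), both lipocalins, were lower.

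Of 15 genes of precursors and newly formed oligodendrocytes, 3 were called lower on DR, Gpr17 (-0.53, adjusted p = 0.00725), Ptprz1 (-0.24, adjusted p = 0.0113) and Cspg5 (-0.26, adjusted p = 0.028), and 14 of 15 were below 0. Gpr17 is a receptor of cells that are committed but do not yet form myelin. The summed level of the list was 612 to 658 CPM on DR, 737 to 751 CPM on AL and 681 to 731 CPM on KD. Ptprz1, which Bergmann glia and astrocytes also express, made up 50.4% to 53.8% of that sum. The other 14 genes summed to 295 to 321 CPM on DR, 344 to 360 CPM on AL and 329 to 344 CPM on KD. That smaller sum also follows its more abundant genes, as Cspg5 had 67.55 CPM on AL and Pdgfra 17.2 CPM. With single libraries left out, the call of Cspg5 on DR held in 2 of 8 fits and those of Gpr17 and Ptprz1 in 8. Pdgfra, the receptor that marks precursors, was at -0.04 (adjusted p = 0.865). In KD against DR, Gpr17, Cspg5 and Enpp6, a choline phosphodiesterase of newly formed cells (0.67, adjusted p = 0.0191), were called higher. In none of these lists was a gene called in KD against AL.

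In the study's own list of 166 oligodendrocyte genes, which holds 8 of the 9 genes, 15 (9.04%) were called in DR against AL, 10 lower and 5 higher, with a median log2 fold change of -0.03. Cyth1, a regulator of Arf GTPases, was the most firmly called, and it was higher (0.36, adjusted p = 0.00143). Between KD and DR, 26 (15.7%) were called, 16 higher and 10 lower, with Arrdc2, an arrestin-domain protein, the most firmly (-1.33, adjusted p = 5.57e-05). The mean log2 CPM of the list was 4.64 to 4.81 on AL, 4.60 to 4.74 on DR and 4.71 to 4.74 on KD, so the diets overlapped. The mean over the 9 genes ran from 5.75 to 6.08 on AL, 5.68 to 5.83 on DR and 5.89 to 5.998 on KD. Each gene counts equally in that mean, so it also follows Opalin, which had only 6 reads in DR3. The other 8 genes were all above their DR mean in DR3. The gap between DR and KD in this mean is therefore no difference shared by all 9 genes. The study picked 6 oligodendrocyte genes on these mice, of which 4 were called lower on DR here, and this is no independent evidence of their direction. Prox1 (-0.19, adjusted p = 0.0656) and Fth1 (0.28, adjusted p = 0.0542), the rest of the 6, did not pass here. The study's own fit called more genes between these diets than the fit used here. It also reported that down-regulated genes were enriched in an oligodendrocyte gene set, and enrichment was not tested here.

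**Figure D5:**
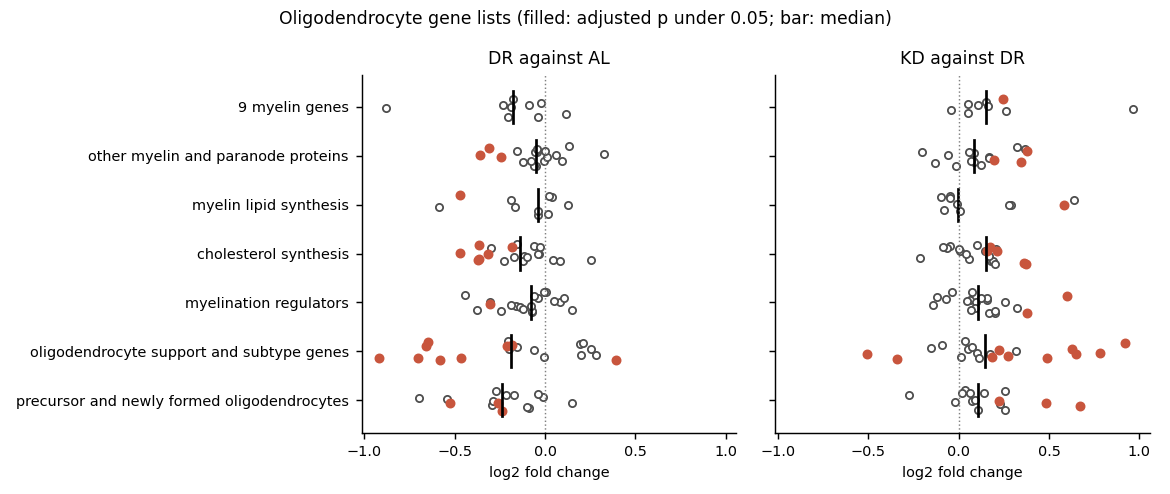
Log2 fold changes (x axis) of the genes of 7 lists (y axis) for DR against AL and KD against DR; each point is a gene, filled where the adjusted p is under 0.05, and black bars are medians. None of the 9 myelin genes is filled on the left and 1 is on the right, while filled points lie left of 0 in the other lists on DR, Apod excepted, and mostly right of 0 in KD against DR.

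The genes whose level was most like the mean log2 CPM of the 9 over 12 libraries, among 11691 genes of at least 5 CPM, were ranked by Pearson r. The first 10 included Stum (r = 0.92), Serinc5 (0.92), Kcnb2 (0.92), a potassium channel, Klk6 (0.91), Sel1l3 (0.91), Enpp2 (0.90), which makes lysophosphatidic acid, Trim44 (0.90) and Rrbp1 (0.90). The median r over all candidates was 0.01. Of the 10, 1 is in the study's oligodendrocyte list, which supplies 1.11% of the candidates. The ranking rested on Opalin, whose deviations are the largest. In a ranking without it, chosen after seeing the data, none of these 10 stayed among the first 10, which were Fbxl17 (0.95), Ptk2 (0.94), Dennd2a (0.93), Syne1 (0.92), Wasf1 (0.91), Cdr2 (0.90), Pex5l (0.89), Pard3 (0.89), Myrf (0.89) and Shtn1 (0.88). Myrf was the one gene of the study's list among them.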

How the data were processed

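RNA-seq of 12 cerebellar cortex libraries was analysed, 4 per diet. TruSeq poly(A) libraries were read from both ends; this kit does not mark strand, and the strand setting of the counting is not given in the sources used here. Per the study's methods and the submitters' processing notes, the authors trimmed reads with Trimmomatic 0.39, aligned them with STAR 2.7.0f to GRCm38.p6 and counted them on genes with featureCounts of Subread 1.6.4. The authors deposited raw counts of 54752 genes, with no normalization.

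Groups came from the diet labels. Nothing in the labels says how mice were housed or prepared in batches. Each p-value sets a diet difference against the variation between these mice, estimated with information shared across genes. All 18 pairs of libraries of 1 diet differed by more than sampling noise (chi-square per gene 4.95 to 11.6). The 3 comparisons were fitted separately, with the 8 libraries involved: edgeR 4.0.16 (R 4.3.3) with filterByExpr (minimum count 10, minimum total 15), TMM and its quasi-likelihood test, adjusted by Benjamini-Hochberg over all genes tested, called under 0.05. CPM used TMM over all 12 libraries, and log2 CPM a prior count of 2. Symbols were matched for 54723 genes through a later GENCODE release, which also gave the exon overlaps. Promoter stretches came from RefSeq, with 8 of the 9 genes searched. The fit was tested on simulated counts for DR against AL. There edgeR recovered 28% of log2 changes of 0.25, 82% of those of 0.5 and 96% of those of 1, with 10 false calls. A change of 0.25 was therefore mostly missed in the simulation. The changed genes there were drawn at random and were not picked to vary as the 9 genes do. Several of the 9 varied more within diets than most genes of a similar level, so these rates may be too high for them.

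Alternatives were other scalings, no filter, a filter at 10 CPM, DESeq2 1.42.0, all 12 libraries in 1 fit, an oligodendrocyte index as covariate, and each library left out. All 9 genes were named, and from each list the called genes with the lowest adjusted p, other genes only beside a result. The 9 genes and all lists were chosen with earlier results of these data known. Some genes are not reported here.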

Additional observations from a re-analysis of the deposited data

Results flagged for a closer look

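In 2 of 27 groups of 4 libraries (9 genes on 3 diets), 1 library lay apart by Dixon's criterion, which chance alone exceeds in about 5% of groups. Cnp was at 176.9 CPM in DR2, against 209.4 to 209.7 CPM in the other DR libraries. Without DR2, the log2 fold change of Cnp in DR against AL was 0.015 instead of -0.042, and neither value passed. Opalin was at 0.173 CPM (6 reads) in DR3, against 0.687 to 0.749 CPM in the other DR libraries. Mag differed between KD and DR, by 0.24 on the log2 scale (edgeR, adjusted p = 0.0211, all 4 KD libraries above all 4 DR libraries), while it passed in neither diet's comparison with AL (adjusted p = 0.111 on DR and 0.994 on KD).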

How the results depend on the processing

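No paired analysis was possible because the labels give no replicate number that is shared between diets. Of the 9 genes, 3 instead of 0 were called in DR against AL without a filter on low counts. In KD against DR it was 3 without that filter (Ermn, Mag and Opalin) and 2 with DESeq2 (Ermn and Mag) instead of 1, and 0 to 2 with a library left out. With the oligodendrocyte index as covariate, 1 was called, Opalin in place of Mag. KD against AL gave 0 throughout. Genes called in all were 583 in DR against AL, 1258 without the filter, 985 with DESeq2 and 235 to 712 with a library left out. They were 0 in KD against AL, 118 without the filter, 9 with DESeq2 and 0 to 6 with a library left out, and 942 in KD against DR, 1503 without the filter, 515 with the covariate and 467 to 946 with a library left out. The causes were not tested.

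Signs turned only among log2 fold changes that did not pass. With the covariate, Mbp became 0.005 and Mal 0.011 in DR against AL, and Mbp -0.022, Cldn11 -0.043 and Mal -0.012 in KD against DR. With a library left out, DR against AL ran from -0.060 to 0.014 for Mal and from -0.063 to 0.015 for Cnp. KD against DR ran from -0.004 to 0.074 for Cnp and from -0.106 to 0.012 for Mobp. KD against AL ran from -0.054 to 0.082 for Mbp, -0.173 to 0.077 for Mog, -0.002 to 0.090 for Mag, -0.007 to 0.025 for Cnp, -0.088 to 0.037 for Cldn11, -0.009 to 0.076 for Mal, -0.002 to 0.201 for Ermn and -0.126 to 0.311 for Opalin.

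Counts of called list genes moved as well. In DR against AL, other myelin proteins went from 3 to 5 without the filter and with the covariate, regulators from 1 to 4 without the filter and with DESeq2, precursors from 3 to 5 and the list of 166 genes from 15 to 26 without the filter. In KD against DR, other myelin proteins went from 3 to 6 without the filter and with DESeq2, and with the covariate cholesterol genes went from 5 to 3, support genes from 10 to 6, precursors from 3 to 1 and the list of 166 from 26 to 15. Purkinje cell genes in DR against AL went from 2 to 5 with DESeq2. Scalings moved the median of all genes by at most 0.025. Opalin, at 6 to 59 reads, is limited by depth and could not be fitted with a filter at 10 CPM.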
